A study of Homo sapiens with 24 samples.

Results

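PEO1 cells that lack BRCA2 function were compared with PEO1 cells in which BRCA2 had been restored, and untreated PEO4 cells, counted beside each of them, served as the bridge between the tables. All 12 untreated libraries with these labels were used, of 24 RNA-seq libraries in the series, and 16888 of the 28277 genes in both tables had enough counts to be tested. PEO1 and PEO4 are established lines of high-grade serous ovarian carcinoma with a common donor, PEO1 from platinum-sensitive and PEO4 from later, resistant disease. The first table holds 3 libraries of BRCA2-deficient PEO1 (genotype label WT, called PEO1 here) and 3 of PEO4 (PEO4 A), grown with added sodium pyruvate and prepared with a directional polyA kit. The second holds 3 untreated libraries of PEO1 BRCA+ (genotype label BRCA2+), a line in which BRCA2 function had returned by spontaneous reversion, and 3 of PEO4 (PEO4 B), grown without added pyruvate. The kit of the second table is not given in the sources used here. According to the study, PEO4 also regained the BRCA2 reading frame by a reversion mutation, so PEO1 alone of these groups lacks BRCA2 function. The restored line is a spontaneous derivative and not an isogenic repair of PEO1, and the passage of each stock of PEO4 was not given.

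BRCA2 acts on resected single-stranded DNA, so that double-strand breaks can be repaired by homologous recombination and stalled forks are protected. Cells without it depend on less accurate repair and are sensitive to platinum and to PARP inhibitors. Because platinum selects for cells that have regained BRCA2, a restored line can differ from its parent by the gene and by everything else that changed during selection and culture. For each gene the bridged difference is the log2 difference of PEO1 and PEO4 A, minus the log2 difference of PEO1 BRCA+ and PEO4 B. It is positive where PEO1 stood higher against its own PEO4 than PEO1 BRCA+ did. Any effect of the table that was equal in both lines cancels in it. An effect of medium, library preparation or cell stock that differed between the lines does not cancel and cannot be told apart from BRCA2 status.

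Replicates of a group had Pearson correlations of log2 CPM (library-scaled read counts, TMM) between 0.984 and 0.994 across genes, and gene counts summed to between 32528913 and 63882077 per library in the first table and between 18699929 and 22375644 in the second. The bridge line itself differed between the tables. PEO4 A and PEO4 B libraries had correlations between 0.826 and 0.833, lower than the 0.891 to 0.919 between the lines within a table. A gene was called where edgeR's quasi-likelihood test gave an adjusted p (Benjamini-Hochberg) below 0.05 together with a log2 difference larger than 1 in size. By this rule 1372 genes (8.12% of those tested) were higher and 3067 (18.2%) lower in PEO4 A than in PEO4 B, 26.3% in all. Between PEO1 and PEO1 BRCA+, 1757 were higher (10.4%) and 2892 lower (17.1%), 27.5% in all. The shifts were shared in part by the lines, with a Pearson r across genes of 0.87 and a Spearman rho of 0.61. Both are a description only, since genes are not independent and each table was counted as a whole. The shifts were largest in RNA classes other than mRNA: the median of 267 microRNA genes was -7.47 (log2) in PEO1 and -7.90 in PEO4, and that of 20 ribosomal RNA genes was -10.99 and -8.96, while the median of 14280 protein-coding genes was 0.06 and 0.05. Of the 20 ribosomal RNA genes 17 had 0 counts in PEO1 and in PEO4 A, so the size of their medians was not measured. A direct difference of PEO1 and PEO1 BRCA+ therefore has to be read beside that of PEO4.

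**Figure D1:**
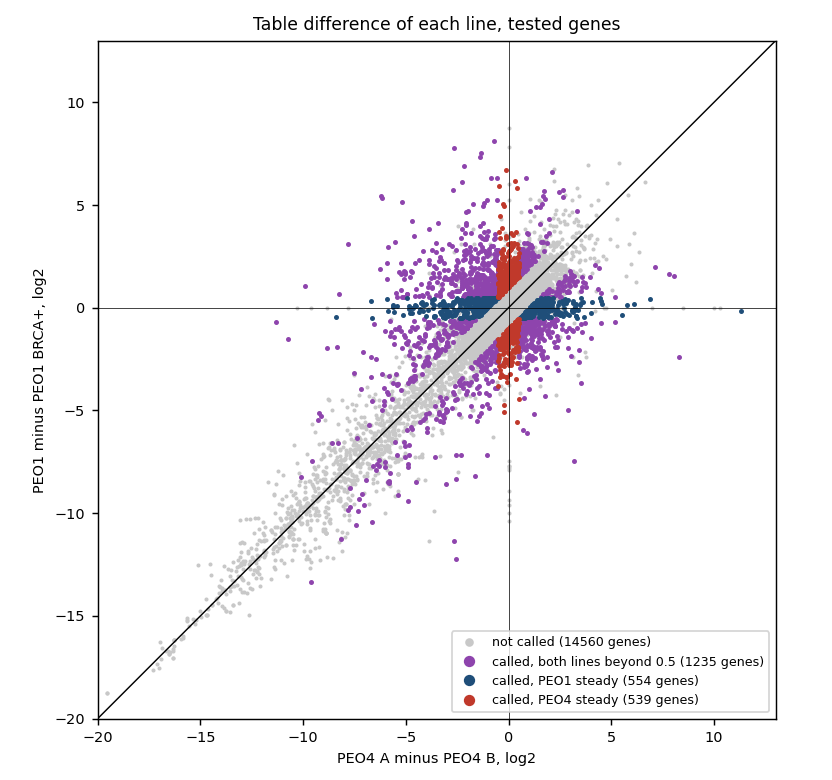
Log2 difference of PEO1 and PEO1 BRCA+ (vertical axis) against that of PEO4 A and PEO4 B (horizontal axis), 1 point for each of the 16888 tested genes; the diagonal marks a bridged difference of 0 and colours mark the 2328 called genes by which line was within 0.5. Most genes lie along the diagonal, red points rise and fall where PEO4 was steady, and blue points spread sideways where PEO1 was steady.

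The bridge left 2328 called genes (13.8% of those tested), 1351 positive (8.0%) and 977 negative (5.79%), with a median bridged difference over all tested genes of 0.02. Of these, 539 (23.2%) had PEO4 A and PEO4 B within 0.5 of each other on the log2 scale, so that most of the difference lay between PEO1 and PEO1 BRCA+, and 318 of the 539 were positive and 221 negative. Another 554 (23.8%) had PEO1 and PEO1 BRCA+ within 0.5, so that most of the difference came from PEO4, with 290 positive and 264 negative. The line within the limit could still differ by up to 0.5. In the other 1235 (53%) the fitted differences of both lines were beyond 0.5, with opposite signs in 703 and the same sign in 532. This limit is on the fitted value and not a test, so a gene in this class need not have passed the test in each line. At this limit about as many called genes rested on the bridge line as on PEO1. With a limit of 1 in place of 0.5 the counts were 677 and 1036. A gene with both lines within 1 was then counted on the PEO1 side, so these counts do not compare the sides. Calls were spread unevenly over the mean of the table differences of both lines. They made up 9.07% of genes with a mean under 0.5 in size and 14.6% at 0.5 to 1. The share was 26.2% at 1 to 2 and 18.7% at 2 or more. A large difference in 1 line also raises this mean, so these shares do not isolate an effect of the table. Of 165 small nucleolar RNA genes 29 were called negative and 0 positive, with a median of -0.79. The line differences themselves were partly shared. Of 4276 genes that differed between PEO1 and PEO4 A, 54.6% also differed in the same direction between PEO1 BRCA+ and PEO4 B, which was 57.7% of the 4052 genes called there.

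BRCA2 (chromosome 13, 32315077 to 32400268, GRCh38.p14) was transcribed in all 12 libraries. Its mRNA stood at 7.79, 8.35 and 7.95 CPM in PEO1 and at 8.63, 9.75 and 8.89 CPM in PEO1 BRCA+. In PEO4 A it reached 10.9, 15.6 and 12.6 CPM, and in PEO4 B 8.64, 8.06 and 10.2 CPM. The PEO1 groups did not overlap but lay close, with a log2 difference of -0.18 ± 0.14 (SE, n = 3 against 3, adjusted p = 0.27 by edgeR). Most of the bridged difference, -0.72 ± 0.20 (adjusted p = 0.0098 by edgeR, below the size limit for a call), came from PEO4, which differed by 0.54 ± 0.14. The level of the mRNA does not show whether the protein was functional, so it is no check of the labels. The study itself checked BRCA2 status from variants in its RNA-seq reads. It reports a premature stop in PEO1 and a further, restoring mutation in PEO1 BRCA+.

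Of 34 tested genes of homologous recombination and the Fanconi anemia pathway, 1 was called positive (8.0% of all tested genes were) and 0 negative, and their median bridged difference was 0.08 against 0.02 for all tested genes. By adjusted p alone 14 of the 34 passed, 16 had an unadjusted p under 0.05, and DESeq2 and limma likewise called 1. The called gene was RBBP8 (chromosome 18, 22914139 to 23026486), which encodes CtIP, the factor that starts the resection of DNA ends. It stood at 697, 605 and 582 CPM in PEO1 and at 159, 165 and 155 CPM in PEO1 BRCA+. The 6 PEO4 libraries lay between 166 and 234 CPM, so that PEO1 stood apart from all other groups. The bridged difference was 1.79 ± 0.15 (SE; adjusted p = 2.3e-07 by edgeR). NBN, a subunit of the break sensor MRN that was named after its values were seen, had a bridged difference of -0.83 ± 0.10, below the size limit for a call. The NBN difference came from PEO4, with means of 196 CPM in PEO4 A and 114 CPM in PEO4 B. PEO1 and PEO1 BRCA+ had means of 92.7 and 96.3 CPM. Among 28 genes of back-up repair, translesion synthesis and fork protection, 1 was called, negative: RADX, a single-strand DNA binding protein that acts at forks, at -1.47 ± 0.26 (adjusted p = 0.00035 by edgeR). Most of the difference came from PEO4, at 4.53, 5.39 and 4.88 CPM in PEO4 A and 2.41, 2.76 and 2.19 CPM in PEO4 B. PEO1 also differed from PEO1 BRCA+, by -0.46 ± 0.18 (adjusted p = 0.033 by edgeR).

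With PEO4 steady, the largest positive differences were ranked among genes with a group mean of at least 3 log2 CPM and non-overlapping PEO1 groups. They included an extracellular protease, metabolic enzymes, membrane proteins and a transcription regulator. MMP2, a secreted gelatinase (chromosome 16, 55478830 to 55506691), stood at 77.1, 47.6 and 45.8 CPM in PEO1. In PEO1 BRCA+ it was at 1.1, 1.01 and 0.918 CPM. PEO4 A had 5.59, 5.72 and 4.05 CPM and PEO4 B 1.84, 8.33 and 1.73 CPM. The PEO1 groups thus differed by 5.81 ± 0.61 (log2, SE), while the PEO4 groups overlapped, and the bridged difference was 5.40 ± 0.83 (adjusted p = 0.00094 by edgeR).

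BCAT1, which transfers the amino group of branched-chain amino acids, stood at 147, 174 and 169 CPM in PEO1 and at 14.7, 12.9 and 14.2 CPM in PEO1 BRCA+. All 6 PEO4 libraries lay between 3.92 and 5.77 CPM, so that both PEO1 lines exceeded PEO4 and the deficient line by far more. Its bridged difference was 3.32 ± 0.17 (adjusted p = 4.4e-10 by edgeR). DHRS2, a short-chain dehydrogenase, had 71.0, 56.1 and 54.7 CPM in PEO1 and 5.15, 4.71 and 4.54 CPM in PEO1 BRCA+, with 5.58 to 8.50 CPM in the PEO4 libraries. Its bridged difference was 3.56 ± 0.20 (adjusted p = 2e-09 by edgeR).

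SEMA5A, a semaphorin that guides axons and cell migration, was the case in which PEO1 BRCA+ stood alone. It stood at 62.7, 77.2 and 73.7 CPM in PEO1 and between 50.5 and 80.6 CPM in the PEO4 libraries. PEO1 BRCA+ had 8.78, 7.18 and 8.89 CPM, and the bridged difference was 3.14 ± 0.21 (adjusted p = 6e-08 by edgeR). B3GNT7, which extends glycan chains, had the same order, at 14.6 to 25.5 CPM in PEO1, 10.2 to 20.9 CPM in the PEO4 libraries and 1.35 to 1.51 CPM in PEO1 BRCA+ (bridged difference 4.17 ± 0.37). RNF150, a RING finger protein (4.18 ± 0.58), and AFF3, a member of the AF4 family of transcription regulators (2.88 ± 0.31), were also positive. In each, PEO1 was above PEO1 BRCA+ in every library, as the rule for choosing these genes requires.

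By the same ranking, the largest negative difference with PEO4 steady was in EREG, a ligand of the epidermal growth factor receptor (chromosome 4, 74365145 to 74388749). It stood at 0.204, 0.832 and 0.550 CPM in PEO1 and at 25.9, 25.6 and 22.7 CPM in PEO1 BRCA+. The PEO4 groups overlapped, with 11.5, 37.6 and 24.8 CPM in PEO4 A and 21, 21.9 and 11.8 CPM in PEO4 B. PEO1 was therefore the group apart, and the bridged difference was -6.01 ± 0.74 (adjusted p = 0.00023 by edgeR). NRG2, a ligand of the ErbB3 and ErbB4 receptors, was apart in the other line, at 14.7, 12.5 and 14.2 CPM in PEO1 BRCA+ against 0.806 to 1.8 CPM in PEO1 and 1.07 to 4.14 CPM in PEO4. Its bridged difference was -3.26 ± 0.49 (adjusted p = 0.00014 by edgeR).

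NETO2, an auxiliary subunit of kainate receptors, had 1.14 to 1.72 CPM in PEO1, 13.5 to 15.5 CPM in PEO1 BRCA+ and 35.9 to 56.9 CPM in PEO4 (-2.96 ± 0.18). PSD3, an exchange factor for ARF6, had 11.5 to 12.5 CPM in PEO1, 62.6 to 70.0 CPM in PEO1 BRCA+ and 4.48 to 6.49 CPM in PEO4 (-2.63 ± 0.16). FAM180A stood at 18.2 to 21.8 CPM in PEO1 and 162 to 201 CPM in PEO1 BRCA+, with PEO4 libraries spread from 30.1 to 139 CPM (-2.87 ± 0.70). TNC, which encodes the matrix protein tenascin-C, passed narrowly (-2.62 ± 0.87, adjusted p = 0.043 by edgeR). It was called in only 2 of the 12 fits that left out a library, those without PEO4 B replicate 2 or PEO4 B replicate 3, and ranged from -3.96 to -2.20 over the 12.

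**Figure D2:**
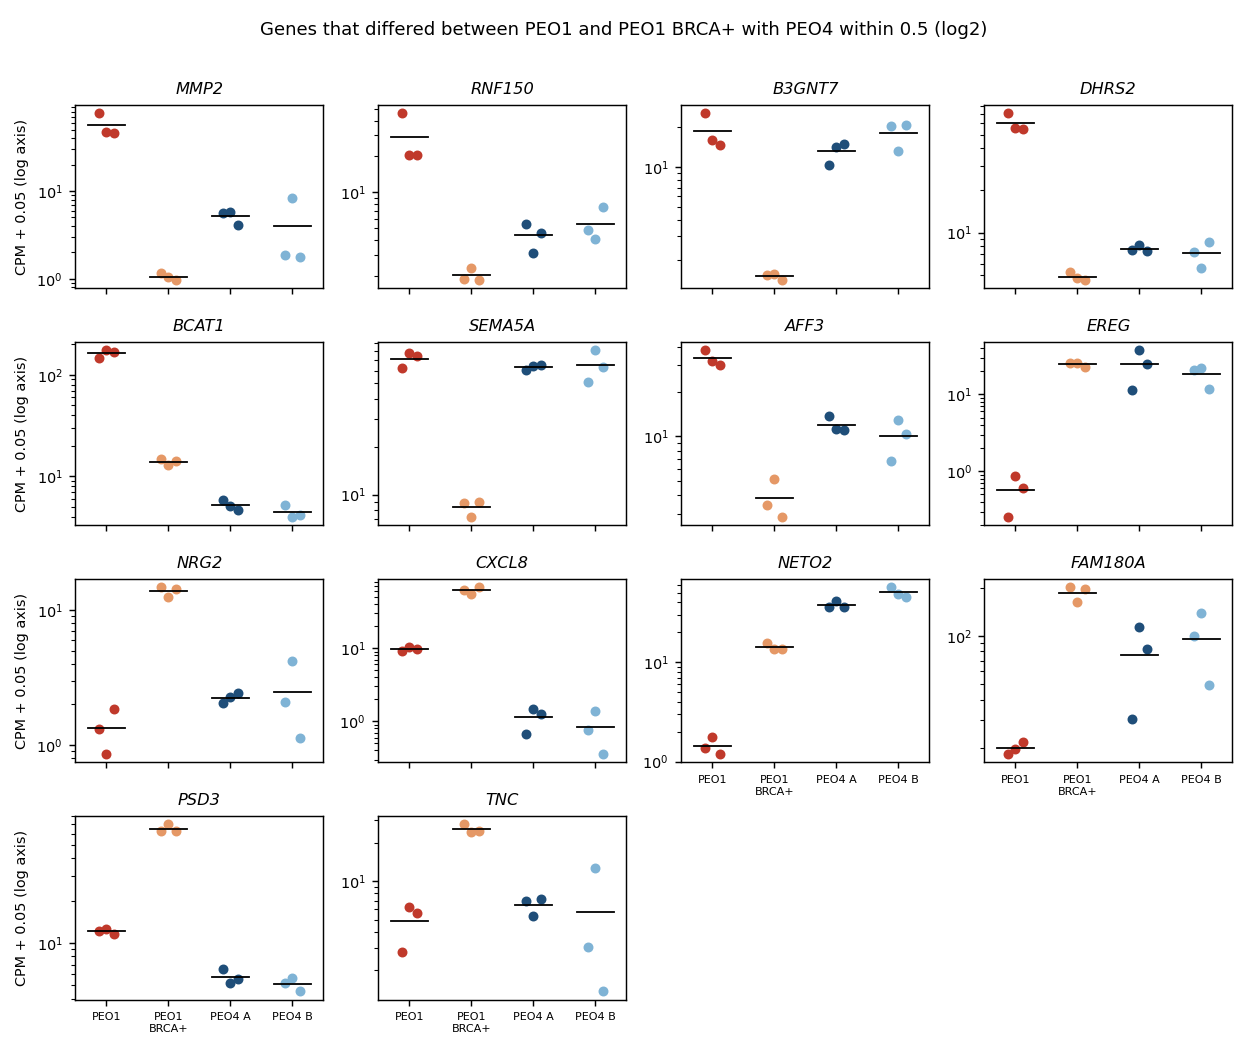
CPM plus 0.05 on a log axis of 14 genes with large positive (the first 7 panels) and large negative (the last 7) bridged differences among called genes with PEO4 A and PEO4 B within 0.5; dots are libraries, 3 for each group, and lines are group means. PEO1 and PEO1 BRCA+ do not overlap in any panel, as the rule for choosing these genes requires, while the PEO4 groups lie close or overlap: MMP2 ran from 45.8 to 77.1 CPM in PEO1 and from 0.918 to 1.1 CPM in PEO1 BRCA+.

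CXCL8, also among the largest negative differences with PEO4 steady, belongs to a list of chemokines, cytokines and feedback genes that are driven by NF-kB, the transcription factor of the inflammatory response. Of the 18 members that could be tested, 5 were negative (5.79% of all tested genes were) and 1 positive, and their median bridged difference was -0.86 against 0.02 for all tested genes. Only 1 of the 18 had a value above 0. The promoters of 3 of the negative members (RefSeq, GRCh38.p14, plus strand, 250 bases before the start site to 50 after) are shown because they hold the letters GGANTTTCC of an NF-kB site, searched on both strands. CXCL1 lies at chr4:73869143-73869442, CXCL8 at chr4:73740319-73740618 and IL6 at chr7:22726950-22727249, and capitals mark the NF-kB letters and, in CXCL8, the AP-1 letters TGANTCA.
CXCL1: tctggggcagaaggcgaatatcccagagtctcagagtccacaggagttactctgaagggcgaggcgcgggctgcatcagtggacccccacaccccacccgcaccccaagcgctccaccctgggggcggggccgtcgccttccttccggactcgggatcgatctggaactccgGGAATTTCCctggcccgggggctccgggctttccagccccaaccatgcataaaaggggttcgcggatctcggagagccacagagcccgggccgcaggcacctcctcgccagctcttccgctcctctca
CXCL8: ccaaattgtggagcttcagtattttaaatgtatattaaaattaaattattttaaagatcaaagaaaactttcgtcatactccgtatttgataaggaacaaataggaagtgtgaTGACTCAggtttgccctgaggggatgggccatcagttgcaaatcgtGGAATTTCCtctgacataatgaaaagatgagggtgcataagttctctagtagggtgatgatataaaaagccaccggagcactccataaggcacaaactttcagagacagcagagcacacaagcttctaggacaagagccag
IL6: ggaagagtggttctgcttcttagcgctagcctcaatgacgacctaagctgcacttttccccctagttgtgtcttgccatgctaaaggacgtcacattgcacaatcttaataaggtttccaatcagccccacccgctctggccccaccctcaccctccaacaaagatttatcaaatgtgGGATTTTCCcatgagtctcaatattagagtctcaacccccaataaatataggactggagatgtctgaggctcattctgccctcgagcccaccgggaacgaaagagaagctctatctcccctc
The NF-kB match began 78 bases before the start site in CXCL1, 91 in CXCL8 and 72 in IL6. The letters occur in 1.64% of 27305 promoters of this length and the AP-1 letters in 7.76%. Among the 12435 promoters of tested genes the shares were 1.62% and 5.07%. Of the 14 tested members with a promoter in the table, 11 held an NF-kB match, among them all 5 negative members and 6 of the 9 that were not called, so the match did not separate them.

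CXCL8, which attracts neutrophils, stood at 9.05, 10.2 and 9.71 CPM in PEO1 and at 62.2, 55.0 and 68.1 CPM in PEO1 BRCA+. The PEO4 libraries lay between 0.305 and 1.43 CPM and their groups overlapped. Its bridged difference was -3.09 ± 0.44 (adjusted p = 0.00011 by edgeR). CXCL1, a chemokine of the same receptor, had 5.06, 4.68 and 5.22 CPM in PEO1 and 88.6, 69.3 and 112 CPM in PEO1 BRCA+, with 0.329 to 2.70 CPM in PEO4 (-3.09 ± 0.69). IL6, an inflammatory cytokine, had 0.347, 0.650 and 0.586 CPM in PEO1 and 15.7, 11.9 and 18.8 CPM in PEO1 BRCA+, with 0.613 to 2.98 CPM in PEO4 (-3.95 ± 0.50, adjusted p = 2.2e-05 by edgeR). In all 3 genes PEO1 BRCA+ was the highest group and its libraries overlapped no other.

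IL32, a cytokine, had 1.14 to 1.28 CPM in PEO1, 6.52 to 7.47 CPM in PEO1 BRCA+ and 0.607 to 1.73 CPM in PEO4 (-2.46 ± 0.47). CXCL1 and IL32 were named after their values were seen. The other negative member, CXCL11, rested on at most 0.550 CPM in any library and lost its call in 6 of the 10 fits without a library that could give a value. The positive member, CSF1, a macrophage growth factor, differed in PEO4, which stood at 2.97, 3.96 and 4.58 CPM in PEO4 A and 10.9, 12.7 and 9.51 CPM in PEO4 B, while PEO1 was steady at 156 to 193 CPM (1.76 ± 0.17). Over the tested members, the median of the direct difference between PEO1 and PEO1 BRCA+ was -1.30, but that of PEO4 A and PEO4 B was also negative, at -0.67, so a part of the direct difference was shared by the bridge line.

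**Figure D3:**
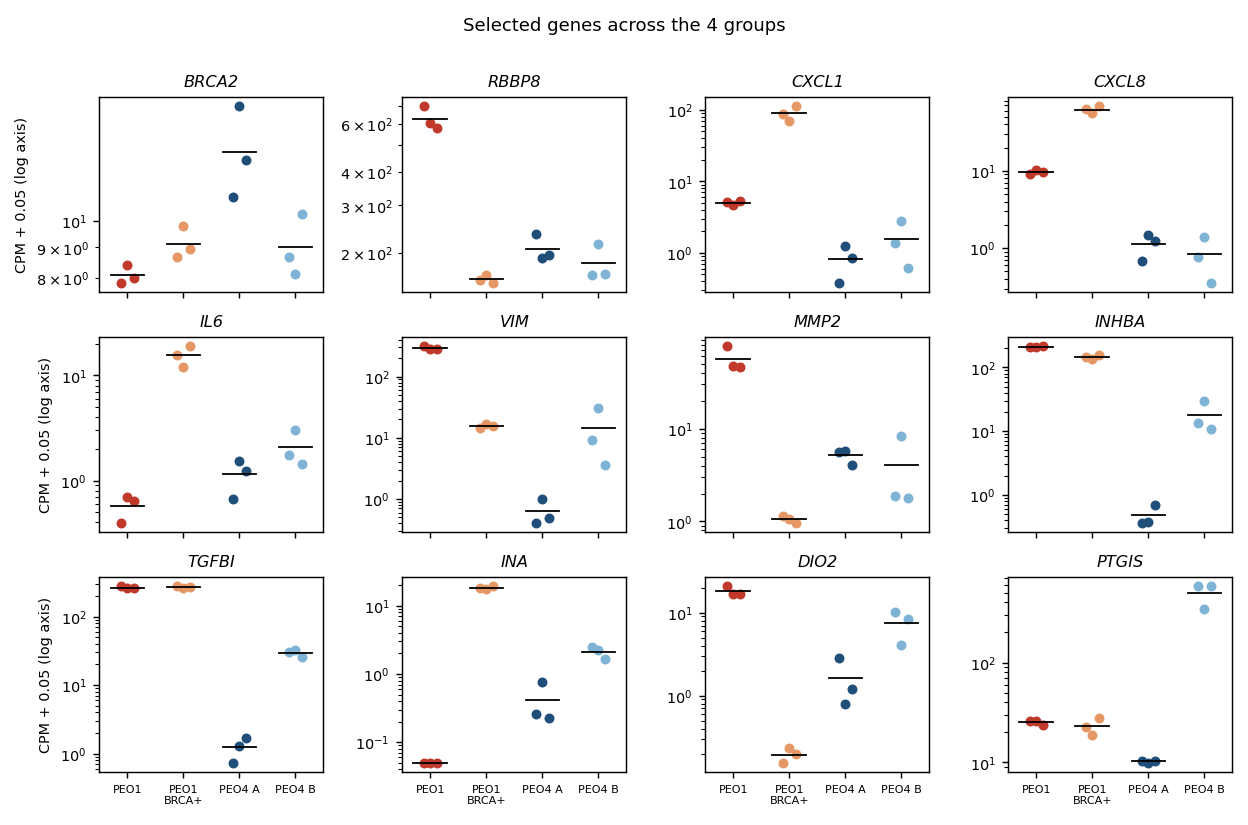
CPM plus 0.05 on a log axis in each library of 12 genes described in the text, with 3 dots and a mean line for each group. In CXCL1, CXCL8 and IL6, PEO1 BRCA+ is the high group, in RBBP8 and MMP2 it is PEO1, and in INHBA, TGFBI and PTGIS the bridge line PEO4 differs between tables more than PEO1 does; PTGIS ran from 9.90 to 10.4 CPM in PEO4 A and from 345 to 581 CPM in PEO4 B.

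Epithelial cells rest on laminins, which they bind through integrins. Of 30 tested genes of these families, 4 were called negative and 2 positive, with a median of -0.09. These are 13.3% and 6.67% of the list, against 5.79% and 8.0% of all tested genes. In all 4 negative members PEO4 was within 0.5. LAMB3, the beta-3 chain of an epithelial laminin, had 88.1 to 92.9 CPM in PEO1 and 286 to 337 CPM in PEO1 BRCA+ (-1.5 ± 0.30, adjusted p = 0.0029 by edgeR), with overlapping PEO4 groups at 81.3 to 176 CPM. The integrins ITGA3, which binds this laminin (-1.17 ± 0.20), and ITGA9 (-1.36 ± 0.25), both named after their values were seen, were negative as well. ITGB4, a subunit of hemidesmosomes, was positive through PEO4 (1.73 ± 0.21), at 363 to 519 CPM in PEO4 A and 1198, 1126 and 1299 CPM in PEO4 B, and ITGB5 was positive at 2.14 ± 0.17. None of 20 tested genes of epithelial adhesion was called by edgeR, DESeq2 or limma, although 10 had an unadjusted p under 0.05, and their values lay between -0.62 and 0.95.

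Mesenchymal genes, which mark the motile state that carcinoma cells can take on, were positive in 11 of 17 tested and negative in 0, with a median of 1.31. The positive share was 64.7%, against 8.0% positive and 5.79% negative of all tested genes, and counts of the lists below are to be read against these shares too. Over the tested members the median was -0.01 between PEO1 and PEO1 BRCA+ and -0.50 between PEO4 A and PEO4 B. The side of the mesenchymal genes varied: PEO4 was within 0.5 in 3, PEO1 in 2, and neither in 6. VIM, the intermediate filament vimentin (chromosome 10, 17228241 to 17237593), had the largest value. It stood at 314, 282 and 284 CPM in PEO1 and at 14.3, 17 and 15.4 CPM in PEO1 BRCA+. PEO4 moved the other way, with 0.359, 0.962 and 0.446 CPM in PEO4 A and 9.11, 30.4 and 3.51 CPM in PEO4 B. The lines were thus far apart in the first table and overlapped in the second, and the bridged difference was 8.91 ± 1.0 (adjusted p = 0.00018 by edgeR), of which 4.23 lay between PEO1 and PEO1 BRCA+ and 4.68 between the PEO4 groups.

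Collagens were positive in 15 of 26 tested (57.7%) and negative in 4 (15.4%), against 8.0% and 5.79% of all tested genes, with a median of 2.02. In 14 of these 19 the fitted differences of both lines were beyond 0.5. The median over the members was 0.77 between PEO1 and PEO1 BRCA+ and -0.99 between PEO4 A and PEO4 B. COL3A1, a fibrillar collagen, was at 7.22, 6.84 and 8.34 CPM in PEO4 B, at most 0.120 CPM in PEO4 A, at most 0.286 CPM in PEO1 and at 0 in PEO1 BRCA+. With the group at 0 set to 3 counts per library, its bridged difference was at least 6.37. COL5A2 was likewise a matter of PEO4 B, at 59.0, 17.6 and 60.4 CPM against 1.1 to 1.48 CPM in PEO4 A and 0.503 to 0.897 CPM in both PEO1 lines (5.62 ± 0.80). COL6A2 was opposite, at 73.9, 90.9 and 100 CPM in PEO4 A and 7.56 to 10.4 CPM in PEO4 B (-3.80 ± 0.62), and COL27A1 was also negative through PEO4 (-1.79 ± 0.18).

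Markers of other cells were counted beside these results. Of 10 fibroblast markers 6 were tested, and 4 were positive (COL1A1, COL3A1, PDGFRB and FAP) and 1 negative (THY1). Their summed level was 391.8 to 429.8 CPM in PEO1, 129 to 157 CPM in PEO1 BRCA+, 77.7 to 108 CPM in PEO4 A and 45.8 to 58.0 CPM in PEO4 B. DPT was at 3 counts or fewer in every library, and LUM in every library of all groups but PEO4 B. THY1, at 340, 382 and 381 CPM in PEO1, made up most of the sum there. In PEO1 BRCA+ 6 of the 10 were at or under 3 counts. Their part in the mesenchymal and collagen results was not tested. Of 10 leukocyte markers 4 could be tested, with PTPRC and CD3E at 3 counts or fewer in every library, with 1 positive (CD14, 1.02 ± 0.34). Of the 8 endothelial markers 5 could be tested, with 1 positive (PECAM1, 3.39 ± 0.83), and they summed to at most 6.10 CPM in any library. Of 15 ovarian carcinoma markers 14 were tested, and PAX8, the Müllerian lineage factor, was at 102 to 336 CPM in all libraries. PAX8 itself was called (-1.20 ± 0.12), at 102, 114 and 113 CPM in PEO1 against 189, 180 and 212 CPM in PEO1 BRCA+, with PEO4 at 228 to 336 CPM. SOX17 was at 0 in every library of PEO1, PEO1 BRCA+ and PEO4 B and was not tested, MECOM was at 3 counts or fewer in each PEO4 A library, and FOLR1 in each PEO1 BRCA+ library. In all, 3 of the 14 tested ovarian markers were positive and 1, PAX8, negative. Keratins were positive in 9 of 16 tested (56.25%) and negative in 2 (12.5%), against 8.0% and 5.79% of all tested genes, with a median of 1.17. The median over the tested keratins was -0.89 between PEO1 and PEO1 BRCA+ and -1.51 between PEO4 A and PEO4 B. In 7 of the 11 called keratins neither line was within 0.5. KRT6A, a stress keratin, stood at 11.8 to 18.2 CPM in PEO1 and 77.1 to 106 CPM in PEO1 BRCA+, and at 1.61 to 1.92 CPM in PEO4 A and 89.9 to 232 CPM in PEO4 B (3.95 ± 0.53), so that both lines were lower in the first table and PEO4 more so. KRT6A and KRT6B are near-identical copies, and reads shared between them make each value uncertain.

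**Figure D4:**
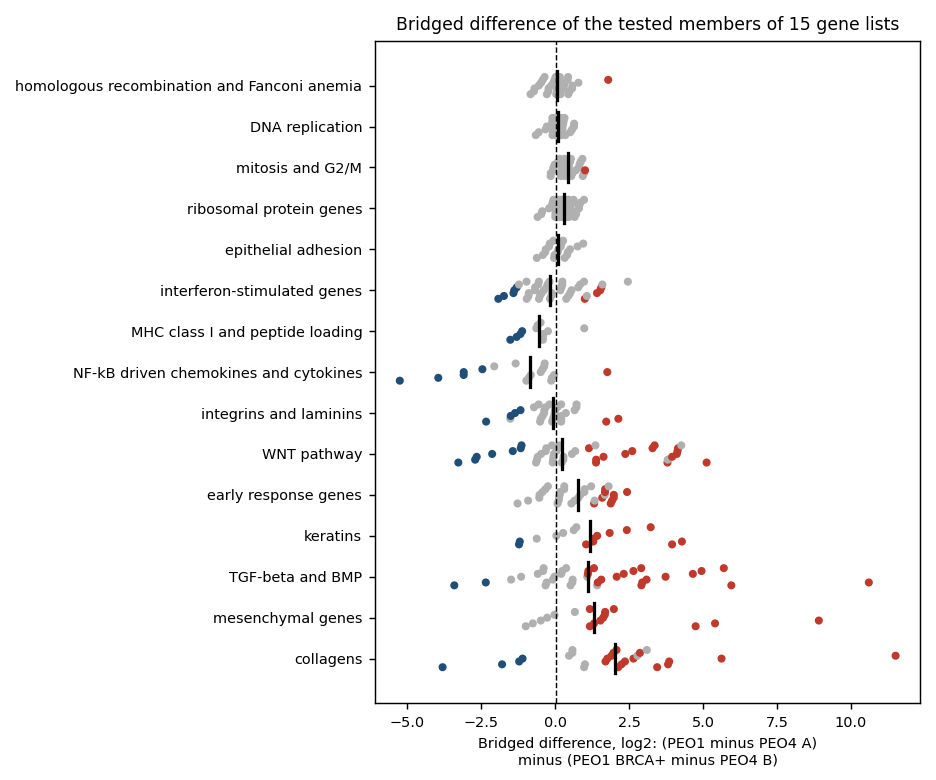
Bridged difference on the log2 scale of each tested member of 15 gene lists; red points were called positive, blue negative and grey not called, black bars are list medians and the dashed line is the median of all tested genes, 0.02. Points of homologous recombination and replication genes crowd around the line, and those of ribosomal protein genes lie mostly above 0, with a median of 0.29. Collagens, with a median of 2.02, extend furthest to the right.

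TGF-beta and BMP ligands signal through serine kinase receptors to SMAD factors and control matrix, growth and cell fate. Of 37 tested genes of this pathway 18 were positive (48.6%) and 2 negative (5.41%), with a median of 1.11. Of all tested genes 8.0% were positive and 5.79% negative, so the negative share lay near that of all genes. The median over members was 0.20 between PEO1 and PEO1 BRCA+ and -0.71 between PEO4 A and PEO4 B. Of the 20 called members 13 had neither line within 0.5, 4 had PEO1 and 3 had PEO4 within it. INHBA, a subunit of activin (chromosome 7, 41685114 to 41705406), stood at 205, 205 and 214 CPM in PEO1 and at 146, 135 and 157 CPM in PEO1 BRCA+. PEO4 A had 0.314, 0.330 and 0.655 CPM and PEO4 B 13.5, 29.4 and 10.8 CPM. The PEO4 groups lay far further apart than the PEO1 groups, and the bridged difference was 5.95 ± 0.56 (adjusted p = 4.4e-05 by edgeR).

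Among the negative members, BMP7, a bone morphogenetic protein, had 2.04, 1.40 and 0.953 CPM in PEO1 and 6.31, 8.46 and 9.67 CPM in PEO1 BRCA+, below the 95.8 to 355 CPM of PEO4 (-3.41 ± 0.54). BMP6, its relative, was lower in the first table in both lines, at 0.364 to 0.476 CPM in PEO1 against 17.1 to 20.9 CPM in PEO1 BRCA+ and at 0.715 to 1.61 CPM in PEO4 A against 10.1 to 12.9 CPM in PEO4 B (-2.34 ± 0.33). WNT pathway genes, which include ligands, Frizzled receptors and their antagonists, were called in both directions, with a median of 0.22. Of 43 tested 14 were positive (32.6%) and 7 negative (16.3%), against 8.0% and 5.79% of all tested genes. WNT6, a ligand, was positive mainly through PEO4, at 5.83 to 6.61 CPM in PEO4 A and 52.7 to 88.1 CPM in PEO4 B, against 3.43 to 5.39 and 1.1 to 1.84 CPM in PEO1 and PEO1 BRCA+ (5.12 ± 0.34). WNT5B, a ligand that acts without beta-catenin, was positive the same way, at 0.119 to 0.275 and 1.66 to 2.09 CPM in PEO4 A and PEO4 B (4.15 ± 0.52).

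Genes with large differences at a steady PEO1 level, taken from those with a group mean of at least 3 on the log2 CPM scale, show how far apart the bridge line lay in the tables. PTGIS, prostacyclin synthase (chromosome 20, 49503874 to 49568137), stood at 10.4, 9.90 and 10.4 CPM in PEO4 A and at 581, 345 and 576 CPM in PEO4 B, while all 6 PEO1 libraries lay between 18.8 and 27.9 CPM. Its bridged difference of 5.74 ± 0.29 (adjusted p = 1e-07 by edgeR) held no difference between the PEO1 lines beyond 0.13 ± 0.19. TGFBI, a matrix protein induced by TGF-beta, had 0.688 to 1.67 CPM in PEO4 A and 25.8 to 32.5 CPM in PEO4 B, with 260 to 278 CPM in both PEO1 lines (4.70 ± 0.23). KCNK15, a potassium channel (4.47 ± 0.52), and SCNN1G, a subunit of the epithelial sodium channel (4.31 ± 0.54), were also positive. In the other direction SLC16A9, a monocarboxylate transporter, had 6.43, 8.47 and 8.27 CPM in PEO4 A and 0.283, 0.110 and 0.610 CPM in PEO4 B, and CHN1, a Rac GTPase-activating protein, 70.6 to 98.3 CPM and 3.92 to 6.62 CPM (-4.18 ± 0.35 and -3.78 ± 0.22). ECEL1, an endopeptidase, was at 7.70, 9.05 and 11.9 CPM in PEO4 A and at 3 counts or fewer in all other libraries, at least 62.2-fold lower in PEO4 B. Its bridged call was lost without PEO1 BRCA+ replicate 3, where the fitted value was -9.06.

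Interferon-stimulated genes were low in PEO1 against PEO4 in both tables, with medians of -2.93 and -2.84 over 42 tested members, and their bridged median was -0.18. Of these, 4 were positive and 5 negative, 9.52% and 11.9% against 8.0% and 5.79% of all tested genes, so that the positive share lay near that of all genes. IFIT1, which binds foreign RNA, stood at 42.6, 40.9 and 37.1 CPM in PEO1 and at 4.79, 5.26 and 3.04 CPM in PEO1 BRCA+, and it also differed in PEO4, at 539 to 576 CPM in PEO4 A and 138 to 210 CPM in PEO4 B (1.52 ± 0.23). IFIT2, a relative of it, followed the same order (1.56 ± 0.14). OAS3, which makes the activator of RNase L, had 58.4 to 66.2 CPM in PEO1 and 83.2 to 90.2 CPM in PEO1 BRCA+, whereas it was higher in PEO4 A than in PEO4 B (-1.92 ± 0.28). MX1, a GTPase that blocks viruses, had the same sign (-1.73 ± 0.42), as did SAMHD1, a dNTP hydrolase of the list of cytosolic nucleic acid sensing (-1.67 ± 0.15), and in both it was PEO4 that differed more. Without PEO4 B replicate 3, which held the highest MX1 and OAS3 of its group, 10 interferon genes were negative instead of 5.

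Of 12 tested genes of MHC class I and peptide loading, 4 were negative (33.3%, against 5.79% of all tested genes) and 0 positive, with a median of -0.54. ERAP1, which trims peptides for MHC class I, stood at 21.9, 19.6 and 20.4 CPM in PEO1 and at 108, 103 and 103 CPM in PEO1 BRCA+, and at 49.3 to 55.1 CPM in PEO4 A and 89.4 to 97.4 CPM in PEO4 B. Both lines were lower in the first table and PEO1 more so (-1.51 ± 0.10, adjusted p = 9.2e-09 by edgeR). ERAP2, its relative, was negative mainly through PEO4 (-1.30 ± 0.14), which differed by 0.82 ± 0.10, while PEO1 differed from PEO1 BRCA+ by -0.48 ± 0.10. TAP2, a subunit of the peptide transporter (-1.18 ± 0.12), and PSMB10, a subunit of the immunoproteasome (-1.12 ± 0.18), were negative with PEO4 steady, and both were named after their values were seen.

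Few genes of proliferation and of ribosomes were called. Of 40 genes of DNA replication 0 were called by edgeR, DESeq2 or limma, although 11 had an unadjusted p under 0.05, and their values lay between -0.65 and 0.64. Of 77 ribosomal protein genes 0 were called by any of the 3 tools, with 44 at an unadjusted p under 0.05, and their median was 0.29. Of the 77, 70 had a value above 0 and 38 passed by adjusted p alone, below the size limit. Of 38 genes of mitosis 1 was called, 33 had a value above 0 and the median was 0.42. Of the 38, 27 had an unadjusted p under 0.05 and 21 passed by adjusted p alone, below the size limit but for 1. That gene, NUSAP1, which binds spindle microtubules, stood at 274 to 293 CPM in PEO1 and 141 to 164 CPM in PEO1 BRCA+, with 112 to 154 CPM in PEO4, and its value of 1.01 ± 0.14 was just past the limit. It was under 1 in 5 of the 12 fits without a library, those without PEO1 replicate 1, PEO4 A replicate 1 or 3, PEO1 BRCA+ replicate 3 or PEO4 B replicate 3, at 0.92 to 0.99.

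Of 33 tested early response genes, which are induced within minutes of growth factors or stress, 9 were positive (27.3%, against 8.0% of all tested genes) and 0 negative, with a median of 0.79. Only 5 were positive in the fit with a block for the replicate number and in the fits without PEO1 BRCA+ replicate 1, PEO1 BRCA+ replicate 3, PEO4 B replicate 1 or PEO4 B replicate 2. The median over the tested members was -0.25 between PEO1 and PEO1 BRCA+ and -0.84 between PEO4 A and PEO4 B. Of the 9 called members 6 had neither line within 0.5, 2 had PEO1 and 1 had PEO4 within it. ATF3, a stress factor, had 18.2, 18.8 and 17.5 CPM in PEO1 and 10.7, 8.05 and 9.96 CPM in PEO1 BRCA+, while PEO4 differed the other way, by -0.66 ± 0.16, at 4.68 to 5.58 CPM in PEO4 A and 6.1 to 9.27 CPM in PEO4 B (bridged 1.59 ± 0.22, adjusted p = 2.7e-05 by edgeR). Of 28 p53 target genes 4 were positive and 2 negative, 14.3% and 7.14% against 8.0% and 5.79% of all tested genes, with a median of 0.25, and 2 were positive in the fits without PEO4 A replicate 1, PEO1 BRCA+ replicate 3 or PEO4 B replicate 3. EDA2R, a receptor of the TNF family, was at 1.30, 1.40 and 0.916 CPM in PEO1 and at 3 counts or fewer in each PEO1 BRCA+ library, which is at least 8.24-fold higher, and its bridged difference was at least 3.40. TNFRSF10B, the TRAIL receptor DR5, was negative (-1.43 ± 0.09), at 83.4 to 88.5 CPM in PEO1 and 148 to 155 CPM in PEO1 BRCA+, and PEO4 differed the other way by 0.62 ± 0.07, at 118 to 131 CPM in PEO4 A and 77.7 to 85.4 CPM in PEO4 B.

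Since the media differed in pyruvate, genes of its metabolism were read on their own. Of 34 tested genes of glycolysis, pyruvate and lactate 2 were positive and 3 negative, 5.88% and 8.82% against 8.0% and 5.79% of all tested genes, with a median of 0.06, so that the list as a whole lay near all genes in the bridged difference. An effect of medium equal in both lines cancels there. The direct medians of the list were 0.31 in PEO1 and 0.38 in PEO4, against 0.06 and 0.05 of protein-coding genes. Their cause was not tested. PDK4, which blocks the entry of pyruvate into the citric acid cycle, stood at 22.0, 13.5 and 15.4 CPM in PEO1 and at 1.37, 1.88 and 0.773 CPM in PEO1 BRCA+, and at 11.2 to 12.2 CPM in PEO4 A and 5.33 to 7.29 CPM in PEO4 B. Both lines were higher in the table grown with pyruvate, and PEO1 more so (2.77 ± 0.33, adjusted p = 9.2e-06 by edgeR). SLC2A3, a glucose transporter, had 16 to 20.2 CPM in PEO1 and 1.59 to 1.74 CPM in PEO1 BRCA+, with overlapping PEO4 groups (4.49 ± 0.70). SLC16A7, a pyruvate and lactate transporter, differed in PEO4, at 103 to 118 CPM in PEO4 A and 9.77 to 13.5 CPM in PEO4 B (-3.71 ± 0.22), and HK2, a hexokinase, was negative at -1.68 ± 0.16. CA12, a carbonic anhydrase of the hypoxia list, stood at 112 to 119 CPM in PEO1 against 2.05 to 2.32 CPM in PEO1 BRCA+, a difference of 5.75 of which the bridge line shared 2.63 ± 0.20, at 3.41 to 4.11 CPM in PEO4 A and 0.378 to 0.938 CPM in PEO4 B (bridged 3.11 ± 0.31). The hypoxia list held 3 positive (16.7%) and 1 negative (5.56%) of 18 tested, the negative share near that of all genes.

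The counts of the following lists are to be read against the 8.0% positive and 5.79% negative of all tested genes, and several lie near them. Genes tied to platinum handling included 7 positive and 1 negative of 42 tested, with a median of 0.32, and in none of the 8 was PEO4 within 0.5. SLC22A3, an organic cation transporter, stood at 414, 382 and 384 CPM in PEO1 and at 110, 128 and 104 CPM in PEO1 BRCA+, against 0.298 to 0.495 CPM in PEO4 A and 3.40 to 21.8 CPM in PEO4 B (6.56 ± 0.97). Among 31 tested ABC transporters 3 were positive and 3 negative, 9.68% each, with ABCC3, an exporter of organic anions, at 1.69 ± 0.29 and ABCC4, an exporter of cyclic nucleotides, at -1.49 ± 0.27. Of 8 metallothioneins 2 were positive and 1 negative. MT1A was at 17.1 to 20.7 CPM in PEO1 and 4.93 to 6.41 CPM in PEO1 BRCA+ with PEO4 steady (1.53 ± 0.29), while MT1G had 0 counts in each PEO1 library, at least 22.5-fold lower than the 1.24 to 1.74 CPM of PEO1 BRCA+. PEO4 A was also below PEO4 B, by -3.05 ± 0.51, and with PEO1 set to 3 counts the bridged difference of MT1G was -1.53. Of 25 tested HOX genes 3 were positive and 3 negative, HOXA7 at -2.72 ± 0.32 and HOXD8 at 3.71 ± 0.49. Of 22 tested imprinted genes 4 were positive and 1 negative, among them NDN (1.43 ± 0.25) and NAP1L5 (-1.59 ± 0.35). The integrated stress response held 1 positive and 2 negative of 26, SLC7A1, a cationic amino acid transporter, at -1.09 ± 0.10, and cholesterol and fatty acid synthesis 1 positive and 1 negative of 29, HSD17B7 (1.67 ± 0.18) and LSS (-1.18 ± 0.21). Of 22 tested histone genes 3 were negative and 0 positive, with a median of -0.70, of which H2BC21 was at -2.05 ± 0.52. Of 2 tested cancer-testis genes XAGE2 was positive (2.91 ± 0.29), and 0 of 20 ribosomal RNA genes were called by edgeR, with 1 at an unadjusted p under 0.05, although DESeq2 called 1 and limma 11. Since 17 of these 20 had 0 counts in PEO1 and in PEO4 A, their bridged differences could not be resolved.

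The order of the lines was turned around in 127 genes. In 81 of these PEO1 was above PEO4 A and PEO1 BRCA+ below PEO4 B, and in 46 the reverse held. DIO2, the deiodinase that activates thyroid hormone (chromosome 14, 80197526 to 80231057), had 20.8, 16.7 and 16.8 CPM in PEO1 above 2.81, 0.742 and 1.16 CPM in PEO4 A. It had 0.105, 0.183 and 0.145 CPM in PEO1 BRCA+ below 10.2, 4.08 and 8.39 CPM in PEO4 B. The bridged difference was 9.09 ± 0.80 (adjusted p = 8.8e-06 by edgeR). INA, the neurofilament protein alpha-internexin (chromosome 10, 103277138 to 103290346), was turned the other way, with 0 counts in each PEO1 library below 0.209, 0.715 and 0.179 CPM in PEO4 A, and with 17.9, 17.5 and 19.3 CPM in PEO1 BRCA+ above 2.41, 2.21 and 1.63 CPM in PEO4 B. With the counts of PEO1 set to 3 per library its bridged difference was -5.64, so that the true value was at least as far from 0.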

How the data were processed

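Untreated PEO1, PEO4 A, PEO1 BRCA+ and PEO4 B cells were profiled by RNA-seq in 3 libraries each, described as biological replicates. Per the labels and the study's methods, total RNA was column-purified with DNase I and polyadenylated RNA was sequenced paired-end, and the submitters' notes name FastQC, fastp, STAR, featureCounts and hg38. The authors deposited 2 tables of raw gene counts, not normalized. Annotation and use of strand are not given in the sources used here, so overlapping genes (41 of the 99 named genes overlap another of the tables in GENCODE) are uncertain. Lines without readable counts (2 and 1) were left out. Tables were joined by symbol.

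Counts were filtered with filterByExpr (minimum count 10, total 15), scaled by TMM and fitted with a mean per group in edgeR 4.0.16 (R 4.3.3), by a robust quasi-likelihood F test, 2-sided, with 8 residual degrees of freedom and a common dispersion of 0.0114. A call needed a Benjamini-Hochberg adjusted p under 0.05 over all tested genes and an absolute log2 difference over 1. Errors are the SE of the fit. Where all libraries of a group held 3 counts or fewer, bounds were computed at 3 counts per library and cover counting error only. Named genes are BRCA2, the 8 largest called differences in each direction with PEO4 within 0.5, the 4 with PEO1 within 0.5 (group mean of at least 3 log2 CPM, libraries not overlapping), up to 2 called members of each list in each direction, and the 3 largest turned-around genes, passing over pseudogenes and small or unnamed RNA. Some genes of that set are not reported here. Members and lists were chosen with earlier results of these data known. DESeq2 1.42.0, limma 3.58.1, other scalings, filters and left-out libraries were alternatives. The 12 libraries treated with PDS entered only the fit of all 24 libraries. Replicate pairs differed by more than sampling noise, and the model was tested on simulated data.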

Additional observations from a re-analysis of the deposited data

Results flagged for a closer look

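The line difference of the first table departed from that of the second, tested as the interaction of line and table, in 2328 genes. Every call of the bridged difference meets this by construction. In 127 genes the line difference was called in opposite directions in the tables, and all 127 were also called in the bridged difference. Among the largest of them by fitted value were INA (-9.67) and DIO2 (9.09). The fitted value of INA depends on the prior count, since its PEO1 libraries were all at 0.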

How the results depend on the processing

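None of the 98 called named genes reversed under any alternative that was run. Without a minimum difference 6138 genes passed in the bridged difference, and 965 passed a limit of 2. With a limit of 0.25 on the steady line, 272 genes lay on the PEO1 side and 280 on the PEO4 side. With a limit of 1 they were 1036 and 677, but genes with both lines within 1 were then counted on the PEO1 side. The counts at that limit therefore do not show whether the sides differ. Among protein-coding genes only, 1467 genes were higher and 1652 lower in PEO1 than in PEO1 BRCA+, against 1757 and 2892 of all classes, and 1083 and 1931 in PEO4 A against PEO4 B, against 1372 and 3067. Over library totals, RLE and upper-quartile scaling, filters, DESeq2, limma, all 24 libraries and protein-coding genes only (the last chosen after seeing the data), the bridged count stayed between 1982 and 2632, and DESeq2 shared 2297 of the 2328. With each library left out it lay between 2174 and 2373, the counts for the PEO1 side between 485 and 559, for the PEO4 side between 505 and 580, between tables for PEO4 from 4342 to 4682 and for PEO1 from 4436 to 4837, and of 98 called named genes 80 kept their call in all 12 such fits. The replicate numbers did not pair the libraries: deviations of same-numbered libraries within a table correlated between -0.0494 and 0.0515. With a replicate block 2236 genes were called and 8 named genes lost their call, MX1, TNC and CXCL11 among them. Limits: genes near 3 counts per library cannot be resolved in the second table, which had fewer counts per library. Low counts of the first table were often even, as 8, 4 and 2 for COL3A1 and 24, 20 and 18 for CXCL11 in PEO4 A. Whether both tables counted reads and read pairs alike was not tested, so their totals may not be on one scale. Nothing separates BRCA2 status from medium, preparation and stock where the lines responded differently, and p-values measure the spread of 3 libraries.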
